A study of Mus musculus with 12 samples.

Results

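Immediate early genes, which neurons switch on soon after they are driven, were followed through the cortex of 12 mice. The set held 10 of them: Fos, Fosb, Junb, Egr1, Egr2, Egr4, Arc, Npas4, Nr4a1 and Dusp1. They were taken as every probe on the arrays, controls aside, that the deposited annotation names for 1 of these genes, which gave 10 of the 29608 genes named on the array. All 10 were also among the 17302 genes that passed the filter on spot quality and brightness. The set was put together because these genes were said to be higher in MRL/lpr than in both other groups, so the members were chosen by their signal in MRL/lpr relative to either group, which is given here as a description with no test. The values bore that out for the means of 9 genes and went against it for Junb, whose mean was lowest in MRL/lpr. Only the comparison of Fn14ko with MRL/+, on whose direction the choice did not rest, was tested for them.

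Immediate early genes need no new protein for their induction. Calcium entry and kinase signalling after synaptic input act on transcription factors already bound at their promoters, chiefly CREB and the serum response factor with its partners, and the transcripts rise and decay fast. Fos, Fosb and Junb encode parts of the AP-1 dimer, Egr1, Egr2 and Egr4 encode zinc finger factors, and Npas4 and Nr4a1 encode further inducible transcription factors. Arc encodes a synaptic protein that controls glutamate receptor uptake, and Dusp1 a phosphatase that turns MAP kinases off. In cortex these transcripts are used as a mark of recent neuronal activity.

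The 3 groups held 4 female mice each, about 12 weeks old, at diestrus. MRL/lpr mice carry a loss-of-function mutation of the death receptor Fas on the MRL background and develop a lupus-like disease. Fn14ko mice are MRL/lpr mice that also lack Fn14, the TWEAK receptor encoded by Tnfrsf12a. They were backcrossed littermates of the MRL/lpr mice and came from the same colony, and both groups carry the Fas mutation. MRL/+ controls, of the MRL/MpJ strain without the Fas mutation, were bought from another source, so strain source and genotype cannot be told apart for them. Total RNA of the whole cortex was labelled with Cy3 (replicates 1 and 3) or Cy5 (replicates 2 and 4), and 2 mice of the same group shared an array. Each slide carried the 2 arrays of 1 group and no other, and the effect of a slide therefore cannot be told apart from that of its group.

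The signal of a gene is given in units of the median retained spot of the same mouse. Signals of different genes come from different probes and are not set against each other. Spots well above background made up 56.6% to 70.03% of all spots in 10 mice but 35.0% and 21.2% in MRL/+ replicates 2 and 4, the Cy5 mice of that group. The dark control spots of these 2 mice gave 6.12 and 6.31 times their local background, and those of the other 10 mice 1.13 to 2.65 times. The dim end of the scale moved as well: the 5th percentile of the signals of all retained genes was 0.549 in MRL/+ replicate 2, and between 0.112 and 0.374 in the other 11 mice. As a check of the labels, Tnfrsf12a ranged from 0.604 to 0.777 in Fn14ko and from 1.38 to 1.90 in MRL/lpr, a log2 difference of 1.27 ± 0.19 (SE, limma adjusted p = 0.00287). It read 0.943 to 1.28 in MRL/+, and neither Fn14ko (-0.67 ± 0.19, adjusted p = 0.104) nor MRL/lpr (0.60 ± 0.19, 0.0555) passed against MRL/+. Whether its probe lies in the deleted stretch is not given in the sources used here. Fas was at -1.14 ± 0.45 in MRL/lpr against MRL/+ (adjusted p = 0.10) and well above background in 2 of 4 MRL/+ mice, so it checks the labels only weakly.

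Before the values, the promoters of 5 members are shown, so that members with a higher mean in MRL/lpr than in both other groups (Fos, Egr4, Nr4a1, Dusp1) can be set beside Junb, whose mean was lower there. RefSeq promoters (GRCm38.p6) were matched by symbol for 8 of the 10 genes, and Egr1 and Arc had no entry. The 250 bases before the start were searched. The core of the cAMP response element, TGACG on either strand, was in at least 1 promoter of each of the 8 matched members, against 19.8% of 27025 genes. Of 62 other activity-regulated genes listed below, 45 were matched and 23 held it (51.1%). The 250 bases of the shown promoters are rich in G and C (58.4% to 74.4%, median of all promoters 52.4%). Capitals in the sequences below mark that core, the full cAMP response element TGACGTCA, the EGR element GCGNGGGCG (both strands) and the TATA box TATAAA (gene strand), and each is printed 5′ to 3′ on the strand of its gene.
Fos, chr12:85473640-85473889, plus strand: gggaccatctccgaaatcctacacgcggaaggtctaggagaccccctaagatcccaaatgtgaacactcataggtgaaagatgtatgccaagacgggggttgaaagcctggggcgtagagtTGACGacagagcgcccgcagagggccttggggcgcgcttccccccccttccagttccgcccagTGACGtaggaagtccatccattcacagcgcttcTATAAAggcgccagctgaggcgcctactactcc
Egr4, chr6:85513590-85513839, minus strand: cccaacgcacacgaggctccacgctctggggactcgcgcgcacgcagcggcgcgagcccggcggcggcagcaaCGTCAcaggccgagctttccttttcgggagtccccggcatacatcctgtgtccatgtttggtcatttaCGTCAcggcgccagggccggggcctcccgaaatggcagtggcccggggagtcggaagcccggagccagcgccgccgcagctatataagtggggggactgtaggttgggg
Nr4a1, chr15:101266596-101266845, plus strand: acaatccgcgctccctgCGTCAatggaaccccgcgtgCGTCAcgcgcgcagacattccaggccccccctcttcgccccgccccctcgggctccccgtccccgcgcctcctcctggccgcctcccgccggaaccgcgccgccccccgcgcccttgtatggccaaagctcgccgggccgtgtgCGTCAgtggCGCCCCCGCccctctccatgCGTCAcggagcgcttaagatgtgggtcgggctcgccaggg
Dusp1, chr17:26508473-26508722, minus strand: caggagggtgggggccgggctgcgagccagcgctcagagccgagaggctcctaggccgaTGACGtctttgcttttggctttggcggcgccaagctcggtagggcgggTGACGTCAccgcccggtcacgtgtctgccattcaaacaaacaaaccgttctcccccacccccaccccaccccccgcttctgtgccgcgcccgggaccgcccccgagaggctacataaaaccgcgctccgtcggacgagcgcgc
Junb, chr8:84978749-84978998, minus strand: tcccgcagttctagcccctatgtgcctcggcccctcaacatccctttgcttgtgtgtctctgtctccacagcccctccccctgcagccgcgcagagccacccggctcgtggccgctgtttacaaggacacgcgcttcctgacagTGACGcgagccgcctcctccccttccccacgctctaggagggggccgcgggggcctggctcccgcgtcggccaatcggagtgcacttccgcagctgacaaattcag
Fos held the core at 129 and 66 bases before the start and a TATA box at 33. Nr4a1 held 4 cores and 1 EGR element, the latter at 60 bases before the start and overlapping none of the cores. The full cAMP response element, found in 1.77% of all genes, was in Dusp1 alone among the 8, where it overlaps 2 of the cores. The EGR element was also in Fosb (5.33% of all genes). A core of the serum response element, the CArG box, was found on either strand in the promoters of Egr2 (1.62% of all genes). The AP-1 element TGANTCA was in none of the 8 windows and in 7.82% of all genes. Junb held a single core, at 106 bases before the start, and so held fewer than Fos, Egr4, Nr4a1 and Dusp1 but the same element. Fosb, whose mean was highest in MRL/lpr, also held a single core, at 60 bases before the start. These are matches of letters in one window, not measured binding.

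Of the AP-1 genes Fos followed the pattern by which the set was chosen. Fos was read by 10 spots of 1 probe (chr12:86817900-86817959, plus strand, mm9), of which 7 were retained and averaged. Its signal was 2.96, 1.82, 3.49 and 2.95 in the MRL/lpr mice, 0.795, 1.00, 2.48 and 1.48 in the Fn14ko mice, and 0.666, 0.669, 1.33 and 0.907 in the MRL/+ mice. Every MRL/lpr mouse was above every MRL/+ mouse, by 3.19-fold on the mean of log2 values, whereas Fn14ko replicate 3 exceeded MRL/lpr replicate 2 and the 2 groups overlapped (2.09-fold). The 7 spots of a mouse varied by 5.45% to 25.8% (coefficient of variation) in 11 mice and by 63.7% in MRL/+ replicate 4, so that mouse's value is the least certain. In MRL/+ the probe was well above background in 2 of 4 mice, the Cy3 ones.

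Fosb, whose stable splice product builds up with repeated activity, hardly differed between groups. Its signal was 2.15, 2.48, 2.31 and 2.33 in MRL/lpr, 2.33, 2.56, 1.56 and 1.46 in Fn14ko, and 1.23, 1.32, 2.19 and 2.27 in MRL/+. The groups overlapped, with MRL/lpr 1.38-fold above MRL/+ and 1.21-fold above Fn14ko on average. The MRL/lpr mice lay close together (coefficient of variation 5.72%), the Fn14ko (27.7%) and MRL/+ (31.6%) mice farther apart, which was not tested.

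Junb, a Jun family partner of Fos that restrains the activity of c-Jun, ran the other way. Its signal (probe chr8:87501881-87501940, minus strand, mm9) was 0.439, 0.199, 0.244 and 0.260 in MRL/lpr, 0.416, 0.314, 0.504 and 0.201 in Fn14ko, and 0.501, 0.597, 0.549 and 0.570 in MRL/+. Every MRL/lpr mouse was below every MRL/+ mouse, at 0.493 times the level, while MRL/lpr and Fn14ko overlapped. Its probe was well above background in 3, 4 and 2 mice of MRL/lpr, Fn14ko and MRL/+, and in MRL/+ replicate 2 its 0.597 lay close to the 5th percentile of all genes in that mouse (0.549). In the Cy3 mice alone the log2 difference between MRL/lpr and MRL/+ was -0.68, in the Cy5 mice alone -1.36, and with loess and quantile scaling -0.51. The part of the raised dim end of the MRL/+ scale in this difference was not tested.

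Against MRL/+, Egr4, Egr1 and Egr2 had the widest differences of the members, whereas against Fn14ko those of Arc and Dusp1 were wider. Egr1, which is used as a map of activity in cortex, was at 35.5, 27.2, 29.8 and 37.3 in MRL/lpr, 12.2, 13.0, 21.2 and 20.6 in Fn14ko, and 4.45, 4.09, 16.3 and 15.0 in MRL/+. MRL/lpr was above each mouse of both other groups, 3.95-fold over MRL/+ and 1.98-fold over Fn14ko. Within MRL/+ the 2 mice of the second array had 3.67 times the signal of the 2 mice of the first, a gap almost as wide as that between the groups.

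Egr2 was at 3.25, 1.61, 2.74 and 3.01 in MRL/lpr, 1.03, 0.661, 1.46 and 1.20 in Fn14ko, and 0.442, 0.565, 1.07 and 0.822 in MRL/+ (probe chr10:67004798-67004857, plus strand, mm9). MRL/lpr again lay above all 8 other mice, 3.74-fold over MRL/+ and 2.45-fold over Fn14ko. In MRL/+ it was well above background in 2 of 4 mice only.

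Egr4 was the member in which Fn14ko, too, stood clear of MRL/+. Its signal (probe chr6:85461153-85461212, minus strand, mm9) was 10.3, 8.24, 13.3 and 15.6 in MRL/lpr, 6.81, 7.97, 8.04 and 7.45 in Fn14ko, and 2.71, 1.87, 4.59 and 1.98 in MRL/+. The 3 groups formed 3 separate ranges, with MRL/lpr 4.42-fold above MRL/+ and 1.53-fold above Fn14ko. The Fn14ko mice lay close together (coefficient of variation 7.56%), unlike the MRL/+ mice (45.2%).

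**Figure D1:**
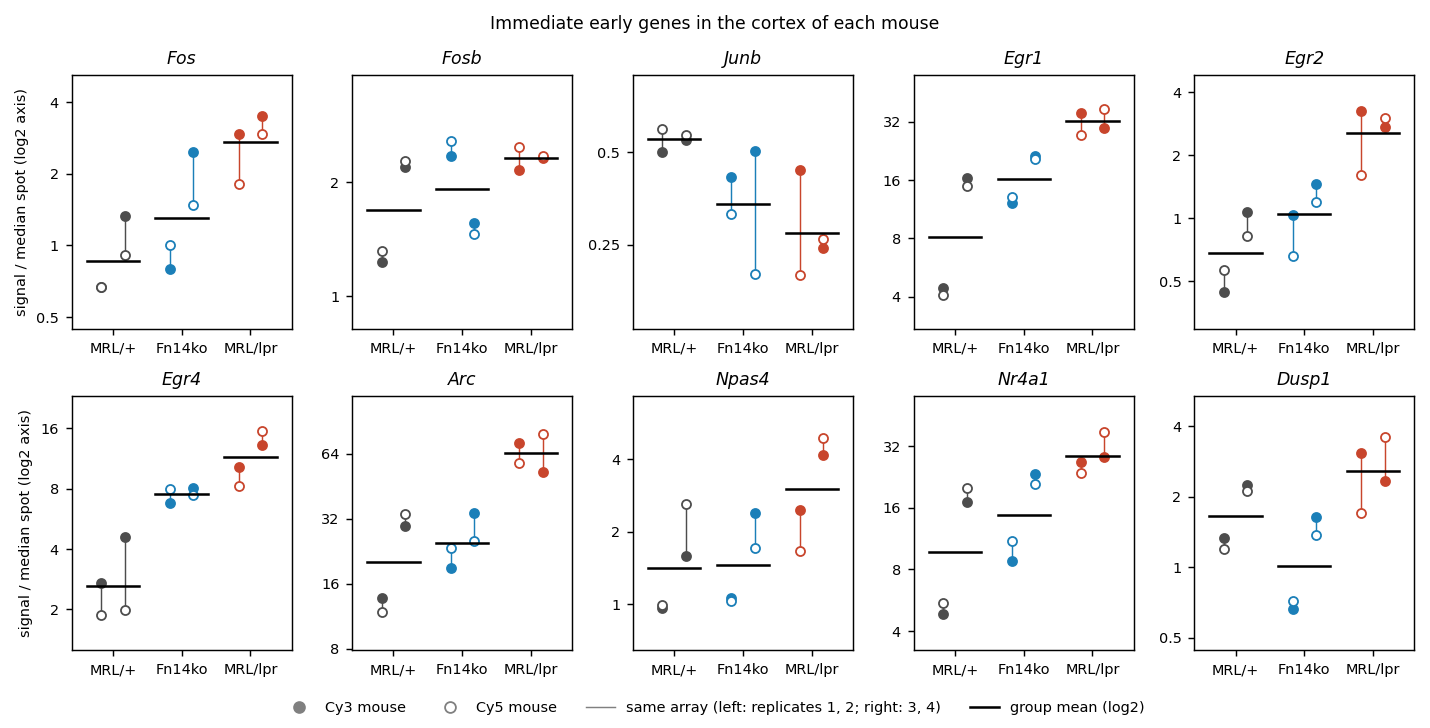
Signal of each of the 10 genes in each mouse, in units of the median spot of that mouse on a log2 axis, by group. Filled points are Cy3 mice and open points Cy5 mice, a thin line joins the 2 mice of an array (replicates 1 and 2 on the left, 3 and 4 on the right), and the black bar is the mean of the log2 values; MRL/lpr lies above both other groups for Egr1, Egr2, Egr4, Arc and Nr4a1, and below MRL/+ for Junb.

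Arc was at 72.2, 58.2, 52.6 and 79.5 in MRL/lpr, 18.9, 23.4, 34.3 and 25.3 in Fn14ko, and 13.8, 11.8, 29.8 and 33.8 in MRL/+ (probe chr15:74499592-74499651, minus strand, mm9). MRL/lpr was set apart from the other 8 mice with no overlap, 3.22-fold over MRL/+ and 2.6-fold over Fn14ko. The ranges of Fn14ko and MRL/+ overlapped.

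Npas4, a neuron-specific factor that answers to calcium and shapes inhibitory synapses, was at 2.46, 1.66, 4.19 and 4.90 in MRL/lpr, 1.07, 1.03, 2.40 and 1.71 in Fn14ko, and 0.967, 0.993, 1.58 and 2.62 in MRL/+ (probe chr19:4984356-4984415, minus strand, mm9). MRL/lpr replicates 3 and 4 were above all mice of the other groups, but replicate 1 lay below MRL/+ replicate 4 and replicate 2 inside the range of both groups. The means of log2 values differed 2.14-fold and 2.07-fold.

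Nr4a1, an orphan nuclear receptor, was at 26.8, 23.6, 28.3 and 37.6 in MRL/lpr, 8.82, 11, 23.4 and 20.9 in Fn14ko, and 4.83, 5.51, 17.0 and 19.9 in MRL/+ (probe chr15:101105071-101105130, plus strand, mm9). MRL/lpr was above both other groups, but by little over Fn14ko replicate 3 (23.6 against 23.4). The folds were 2.94 over MRL/+ and 1.94 over Fn14ko.

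Dusp1 was the only member whose lowest mean was in Fn14ko. Its retained probe (chr17:26642526-26642536 in the deposited annotation, minus strand, mm9) read 3.09, 1.70, 2.34 and 3.6 in MRL/lpr, 0.664, 0.719, 1.64 and 1.37 in Fn14ko, and 1.33, 1.20, 2.25 and 2.12 in MRL/+. MRL/lpr was above every Fn14ko mouse, 2.54-fold, but overlapped MRL/+ (1.55-fold). A further probe that the annotation names Dusp1 was well above background in 2 of 12 mice and was left out.

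Over the 10 members the median log2 difference was 1.62 for MRL/lpr minus MRL/+ and 1.02 for MRL/lpr minus Fn14ko, where the medians of all genes were -0.10 and -0.07. In 6 members, every MRL/lpr mouse was above every MRL/+ mouse (Fos, Egr1, Egr2, Egr4, Arc and Nr4a1), which holds for 10.8% of all genes. In 6 members MRL/lpr was above every Fn14ko mouse (Egr1, Egr2, Egr4, Arc, Nr4a1 and Dusp1), against 8.91% of all genes, and 5 were above both groups, against 4.55%. Since these are the contrasts on which the set was chosen, the counts describe the members and support nothing further. Among the Cy3 mice alone, 2 in each group, 8 members were above MRL/+ and the same number above Fn14ko, where 20.2% and 20.0% of all genes were. The median difference against MRL/+ was 1.60 in the Cy3 mice and 1.54 in the Cy5 mice.

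**Figure D2:**
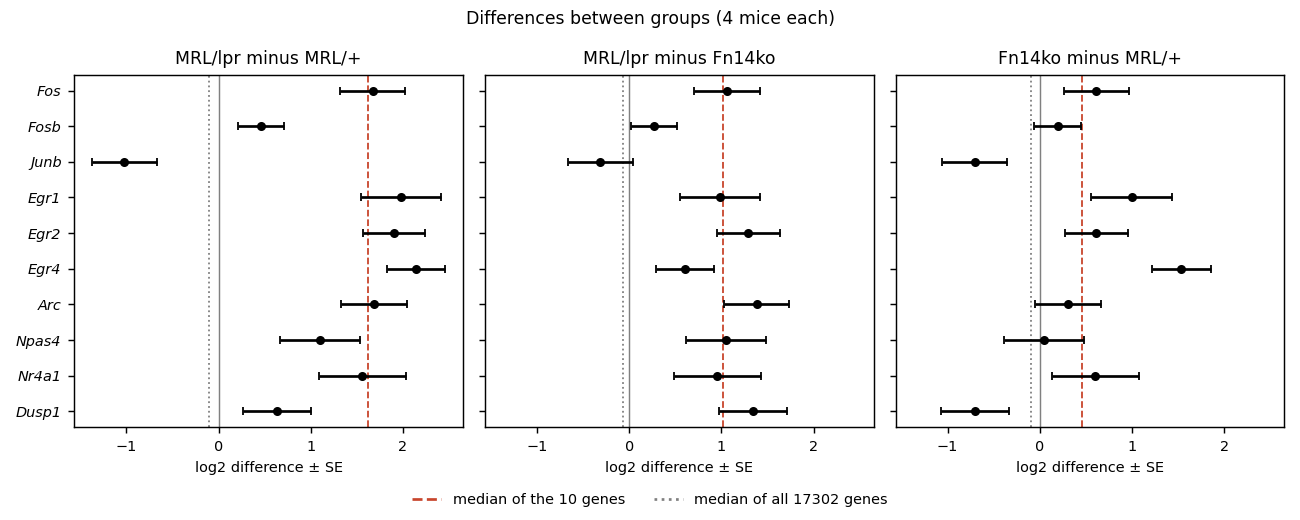
log2 difference between group means for each gene, with its standard error from limma (4 mice a group), in the 3 comparisons. The dashed line is the median of the 10 genes (1.62, 1.02 and 0.45) and the dotted line the median of all 17302 genes; Egr4 lies farthest to the right in the comparison of Fn14ko with MRL/+, at 1.53, and Junb to the left of 0 in each.

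Fn14ko against MRL/+ is the comparison whose direction the choice of genes left free. The choice did use the signals of both groups, each set against MRL/lpr, so the test is not fully independent of it. This comparison asks how these genes stand in lupus-prone mice without Fn14 relative to mice without the Fas mutation. Egr4 rose, by 1.53 ± 0.31 on the log2 scale (2.90-fold, limma adjusted p = 0.0404 over all 17302 genes), and each Fn14ko mouse exceeded each MRL/+ mouse. It was the only member past the threshold, 1 of 10, where 0.954% of all genes were, and the only one without overlap, where 7.42% of all genes had Fn14ko above MRL/+. The 2-sided exact permutation test for Egr4 gave p = 0.0286, the smallest that 70 divisions of 8 mice allow. That test treats the 8 mice as independent and takes no account of the arrays that pairs of them shared. Its p is therefore likely too small if mice of an array are alike.

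Egr1 had the next widest difference, 0.99 ± 0.43 (adjusted p = 0.213), from 12.2 to 21.2 in Fn14ko against 4.09 to 16.3 in MRL/+. Fos, Egr2 and Nr4a1 were at 0.61 ± 0.35, 0.61 ± 0.34 and 0.60 ± 0.47 (adjusted p = 0.294, 0.284 and 0.408), and Arc, Fosb and Npas4 at 0.31 ± 0.36, 0.19 ± 0.25 and 0.05 ± 0.44 (0.579, 0.623 and 0.95). Junb and Dusp1 had negative values, -0.71 ± 0.35 and -0.71 ± 0.37 (0.252 and 0.264). With standard errors of 0.25 to 0.47, differences of this size could not be told from none, and they are not shown to be absent. At an unadjusted p under 0.05, 2 of the 10 passed, Egr1 and Egr4, where 21.9% of all genes did, so that share is near the background.

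The call of Egr4 was close to the threshold. It was lost, with the difference between 1.32 and 1.57, on leaving out any of 7 mice: MRL/lpr replicate 1 or 3 (adjusted p = 0.0621 and 0.0555), Fn14ko replicate 2, 3 or 4 (0.155, 0.0907 and 0.0672) and MRL/+ replicate 2 or 4 (0.0520 and 0.279). In the Cy3 mice alone the difference was 1.07 (adjusted p = 0.123) and in the Cy5 mice alone 2.00 (0.0143).

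The mice of a group were not alike, and in MRL/+ and, for most members, Fn14ko they differed by array. In MRL/+, replicates 3 and 4, which shared an array, had 3.67 times the Egr1, 3.56 times the Nr4a1, 2.48 times the Arc and 2.08 times the Npas4 of replicates 1 and 2. In Fn14ko the same array pair had 2.25 times the Nr4a1, 2.17 times the Dusp1 and 2.15 times the Fos, and 0.619 times the Fosb. In MRL/lpr the widest gap was that of Npas4, 2.24 times, while Arc (0.998) and Fosb (1.01) were level. Averaged over the 10 members, after each gene's mean was set to 0 on the log2 scale, the MRL/+ mice stood at -1.0, -1.01, 0.02 and -0.09, the Fn14ko mice at -0.47, -0.42, 0.30 and -0.10, and the MRL/lpr mice at 0.80, 0.27, 0.73 and 0.97. MRL/+ replicates 3 and 4 thus lay inside the range of Fn14ko, and MRL/lpr replicate 2, the lowest of its group, just below Fn14ko replicate 3. What the mice of an array shared besides the array, such as a time of death, was not given in the sources used here, and an array cannot be told apart from its pair of mice.

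This split bears on the group differences. Without MRL/+ replicates 1 and 2, the median of the members was 0.84 for MRL/lpr minus MRL/+ and -0.26 for Fn14ko minus MRL/+, and Arc (-0.35), Nr4a1 (-0.32), Fosb (-0.21) and Npas4 (-0.48) had negative values in the latter. Without replicates 3 and 4, the medians were 2.19 and 0.97. For MRL/lpr minus Fn14ko the median was 0.60 without Fn14ko replicates 1 and 2, and 1.53 without 3 and 4. In all of these settings the median difference of MRL/lpr from both other groups stayed above 0. This is the direction by which the members were chosen, so it supports nothing further.

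**Figure D3:**
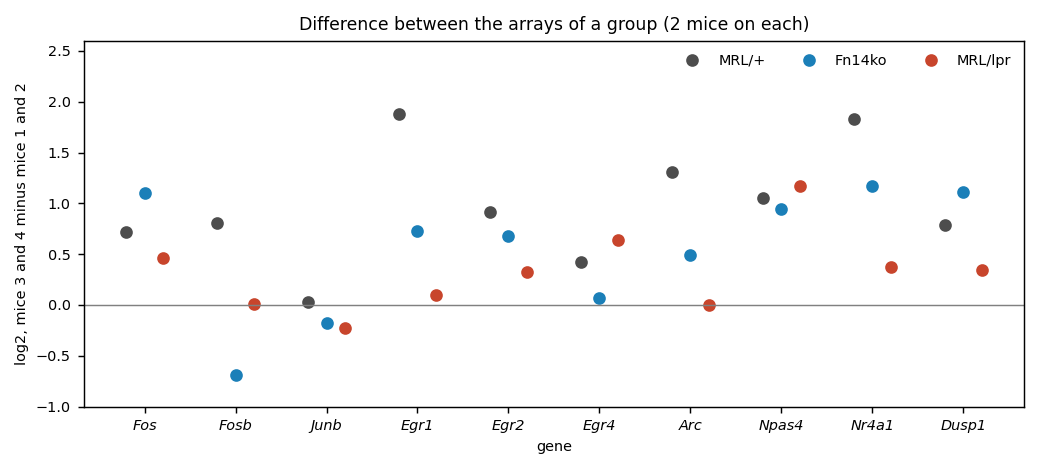
Mean log2 signal of replicates 3 and 4 minus that of replicates 1 and 2, for each gene and group (2 mice on each array). Points above 0 are genes higher on the second array; MRL/+ reaches 1.87 for Egr1 and 1.83 for Nr4a1, while MRL/lpr lies near 0 for Arc and Egr1.

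Most members rose and fell together from mouse to mouse. The log2 signal of a member was correlated with the mean of the other members across the 12 mice (Pearson's r, a description, since all share their mice, arrays and scaling). It was 0.96 for Arc, 0.95 for Egr2, 0.94 for Egr1 and Nr4a1, 0.93 for Fos and 0.87 for Npas4, lower for Egr4 (0.71), Dusp1 (0.70) and Fosb (0.51), and -0.51 for Junb. With the group means and the dye removed, Nr4a1 (0.96), Egr1 and Arc (0.91 each), Dusp1 (0.88), Egr2 (0.87), Fos and Npas4 (0.82 each) still followed the others, while Egr4 (0.45), Fosb (0.22) and Junb (0.10) did so less.

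**Figure D4:**
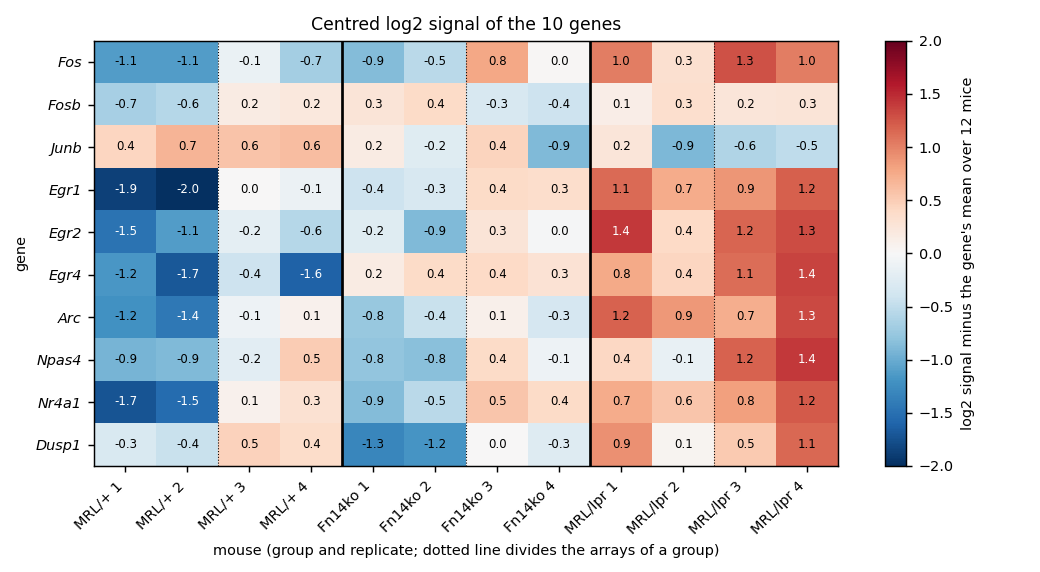
log2 signal of each gene in each mouse, less the mean of that gene over the 12 mice, from blue (lower) to red (higher), with the value in each cell. Thick lines divide the groups and dotted lines the arrays of a group; MRL/+ replicates 1 and 2 are blue for 9 genes, and the row of Junb runs against the others.

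Genes outside the set with the most similar pattern across the 12 mice were Adap1 (r = 0.98 with the mean of the members), a probe with no gene symbol (A_55_P2187034), Nr2f1 and Plec (0.97 each) and Kif21b (0.96). Their log2 differences between MRL/lpr and MRL/+ were 0.76 to 1.22, below the median of the members (1.62) but not below those of Fosb and Dusp1. With group means and dye removed the closest were Ak1 (0.98), ENSMUST00000183298.1 (0.98), Mapre3, Phyh and Prepl (0.97 each). For Ak1 the difference between MRL/lpr and MRL/+ was 0.10, so it followed the members within groups while its group means lay together.

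Activity-regulated genes beyond the 10 had smaller median differences than the members and moved in both directions. Of 62 listed genes (inducible transcription factors, effectors such as Homer1 and Bdnf, and feedback phosphatases and Sprouty proteins), 53 were quantified. Between MRL/lpr and MRL/+, 9 rose and 3 fell (22.6%, where 14.4% of all genes passed the limma threshold). The median log2 difference of the 53 was 0.27 (-0.10 over all genes), with 33 above 0 against 43.4% of all genes. Between MRL/lpr and Fn14ko, 2 rose and 1 fell (5.66%, where 4.57% of all genes passed). The median of the 53 was 0.08 (-0.07 over all genes), with 28 above 0 against 42.8% of all genes. None passed between Fn14ko and MRL/+ in limma, where 15 of the 53 had an unadjusted p under 0.05 (21.9% of all genes did). A t-test with unequal variances and Benjamini-Hochberg adjustment, unlike the unadjusted p of the study's methods, also gave 0. It called 2 of all 17302 genes there, so this 0 adds little. The median of the 53 was 0.18 (-0.10 over all genes), with 35 above 0 against 43.0% of all genes. The count past the limma threshold against MRL/+ was 5 without MRL/+ replicate 4, the mouse with the fewest spots above background. The count against Fn14ko was 0 without MRL/lpr replicate 1, Fn14ko replicate 2, or MRL/+ replicate 3 or 4, and 1 without MRL/lpr or Fn14ko replicate 4. Between Fn14ko and MRL/+ it was 7, 4 and 1 without MRL/+ replicate 3, Fn14ko replicate 1 and MRL/+ replicate 1.

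Among the transcription factors, Bhlhe40, a repressor tied to the circadian clock, was 1.81 ± 0.31 higher in MRL/lpr than in MRL/+ (adjusted p = 0.00344). It read 8.56, 6.61, 9.56 and 7.5 in MRL/lpr, 4.26, 5.84, 6.67 and 5.52 in Fn14ko, and 3.25, 1.96, 3.35 and 1.25 in MRL/+. In MRL/+ the Cy5 mice had the lower values, 1.96 and 1.25. Per1, a clock gene that CREB also induces, rose by 1.46 ± 0.28 (0.00639). For both, Fn14ko lay closer to MRL/lpr than to MRL/+, with 0.54 ± 0.31 and 0.23 ± 0.28 between MRL/lpr and Fn14ko (0.398 and 0.740). Ier2 and Myc fell, by 1.22 ± 0.30 and 1.12 ± 0.23 (0.0177 and 0.00834), and Myc fell against Fn14ko too, by 1.07 ± 0.23 (0.0174). Ier2 read 0.469 to 0.652 and Myc 0.528 to 0.646 in MRL/+, where each was well above background in 2 of 4 mice, close to the dim end of the scale as Junb was.

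Of the close relatives of the members, Jun was at 5.28, 4.26, 11.9 and 41.4 in MRL/lpr against 5.12 to 7.49 in MRL/+, so its mean rested on MRL/lpr replicate 4, and its difference of 0.71 ± 0.61 did not pass (adjusted p = 0.403). Jund was at 1.32 ± 0.55 (0.114), with 4.56 and 2.14 in the Cy5 mice of MRL/+ against 15.2 and 20.8 in the Cy3 mice. Fosl2 and Nr4a2 were at 0.26 ± 0.35 and -0.22 ± 0.33 (0.602 and 0.653). Egr3 and Nr4a3 had no retained spot.

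Among effectors, Ccn1, a secreted matrix protein, rose by 1.33 ± 0.39 against MRL/+ (adjusted p = 0.0381), the kinase Plk3 by 1.02 ± 0.22 (0.0106), Arl4d by 0.92 ± 0.21 (0.0152) and Trib1 by 0.71 ± 0.21 (0.0395). Plk3 and Homer1, a scaffold of metabotropic glutamate receptors whose short form is induced by activity, rose against Fn14ko as well, by 0.84 ± 0.22 and 0.76 ± 0.19 (0.0483 and 0.0354). Homer1 read 1.4, 1.32, 1.10 and 1.55 in MRL/lpr, 0.969, 0.769, 0.697 and 0.740 in Fn14ko, and 0.830, 0.913, 0.877 and 1.09 in MRL/+, where MRL/lpr lay just above MRL/+ (0.53 ± 0.19, adjusted p = 0.0712). The study lists Homer1 as lower in MRL/lpr than in MRL/+, the opposite direction, and the reason was not tested. The value here averages 5 retained spots, and which form of Homer1 they read is not given in the sources used here. Bdnf and Nptx2, late products of activity, differed by 0.13 ± 0.23 and 0.31 ± 0.20 against MRL/+ (0.692 and 0.274). Of the feedback phosphatases Dusp14 rose by 1.32 ± 0.23 (0.00372), Dusp4 fell by 0.99 ± 0.19 (0.00609), and Dusp6 was at 0.21 ± 0.37 (0.706). Dusp4, like Myc and Ier2, was well above background in 2 of 4 MRL/+ mice.

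**Figure D5:**
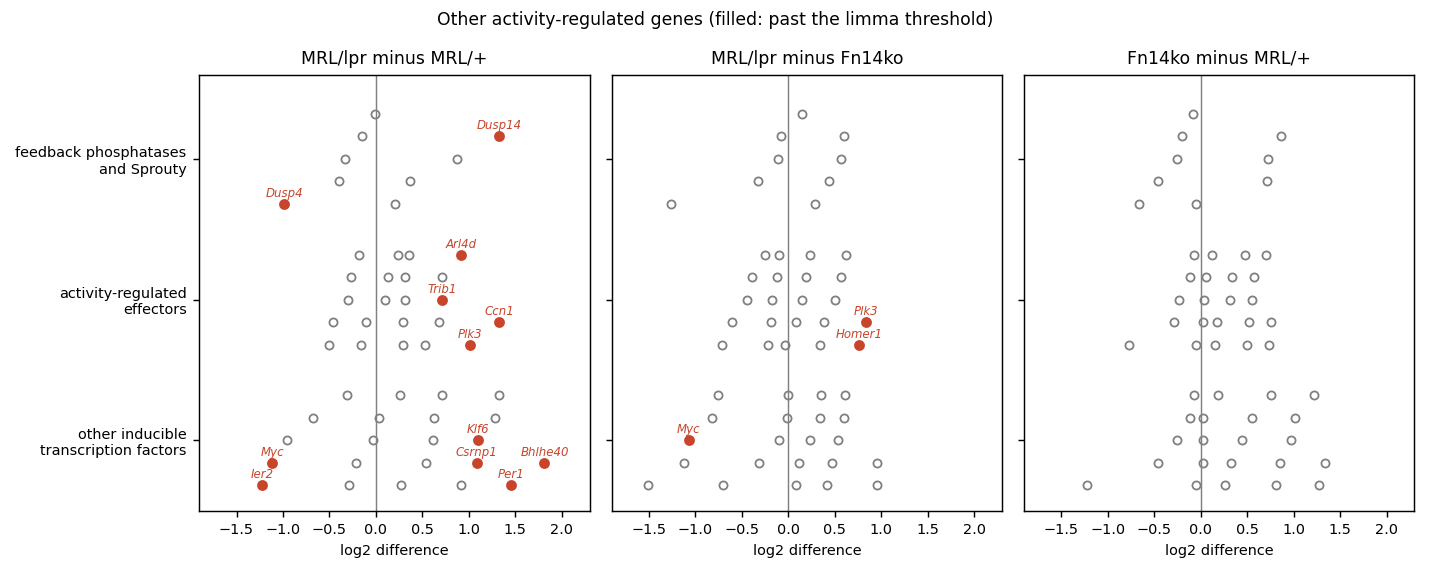
log2 difference of each of the 53 other activity-regulated genes (points) in the 3 comparisons, by list on the vertical axis. Filled, named points passed the limma threshold: 9 higher and 3 lower in MRL/lpr than in MRL/+, 2 higher and 1 lower than in Fn14ko, and 0 between Fn14ko and MRL/+.

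Upstream of the members, 35 genes of calcium, cAMP and MAP kinase signalling were quantified. Between MRL/lpr and MRL/+, 6 rose and 2 fell (22.9%, where 14.4% of all genes passed). The kinase kinase Camkk2 rose by 1.45 ± 0.21 (adjusted p = 0.00120) and Camk4, the kinase it switches on and which phosphorylates CREB, by 1.23 ± 0.20 (0.00253). Prkacb, a catalytic subunit of protein kinase A, rose by 1.34 ± 0.35 (0.0257). It read 7.34 and 3.53 in the Cy5 mice of MRL/+ against 9.76 and 13.7 in the Cy3 mice. Grin2a, a subunit of the NMDA receptor, fell by 1.3 ± 0.30 (0.0156). Camkk2 and Mef2c, a transcription factor of activity-dependent genes, rose against Fn14ko, by 1.09 ± 0.21 and 1.34 ± 0.33 (0.00978 and 0.0360). They were the only calls there (5.71%, where 4.57% of all genes passed). None of the 35 passed between Fn14ko and MRL/+ in limma, where 8 had an unadjusted p under 0.05 (22.9%, near the 21.9% of all genes). Among 11 partners and corepressors, Atf4 alone passed, 1.45 ± 0.42 higher in MRL/lpr than in MRL/+ (0.0366). That is 9.09%, where 14.4% of all genes passed. Atf4 read 1.82 and 1.53 in the Cy5 mice of MRL/+ against 3.76 and 6.22 in the Cy3 mice.

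Heat shock and glucocorticoid-responsive transcripts were read from the same mice. Of 5 quantified heat shock genes none passed in limma in any comparison, with 0 at an unadjusted p under 0.05 for MRL/lpr against MRL/+ and 1 in each of the others. The background share at that unadjusted p was 34.7% of all genes (MRL/lpr minus MRL/+), 18.6% (MRL/lpr minus Fn14ko) and 21.9% (Fn14ko minus MRL/+). Past the limma threshold it was 14.4%, 4.57% and 0.954% in that order. Of 7 glucocorticoid-responsive genes Fkbp5 fell in MRL/lpr against MRL/+ and Fn14ko by 0.98 ± 0.27 and 1.10 ± 0.27 (adjusted p = 0.0294 and 0.0330), and Zbtb16 by 0.71 ± 0.18 against MRL/+ (0.0203). Tsc22d3 and Cdkn1a were at 0.17 ± 0.23 and 0.10 ± 0.39 against MRL/+ (0.609 and 0.870), and Sgk1, Pdk4 and Sult1a1 at -0.21 to -0.02 with no call. Summed over the 7, which weights bright probes, signals were 24.4 to 31.0 in MRL/lpr, 34.8 to 44.5 in Fn14ko and 32.2 to 35.5 in MRL/+. MRL/lpr, the group with the highest mean of 9 members, lay below both others with no overlap, and the part of this in the members' levels was not tested.

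Marker transcripts of several cell types were not level between the groups. In a bulk sample fewer cells of a type and less RNA per cell cannot be told apart, and this holds for every difference above. The 8 excitatory neuron markers summed to 92.8 to 133 in MRL/lpr, 97.9 to 158 in Fn14ko and 115 to 133 in MRL/+. Within that list Slc17a7, Neurod6, Neurod2 and Neurod1 fell by 0.51 to 1.70 in MRL/lpr against MRL/+ while Tbr1, of the deep layers, rose by 1.53 ± 0.28 (adjusted p = 0.00432). Neurod6 also fell against Fn14ko, by 2.11 ± 0.38 (0.00766). C1ql2, the single quantified marker of the dentate gyrus of 3 listed, read 0.173 to 0.225 in MRL/lpr, 0.650 to 1.03 in Fn14ko and 1.18 to 1.32 in MRL/+, which differed by 2.64 ± 0.21 from MRL/+ (6.8e-05) and by 2.08 ± 0.21 from Fn14ko (0.000304). The 6 inhibitory neuron markers summed to 65.2 to 69.9 in MRL/lpr, 64.9 to 90.3 in Fn14ko and 48.1 to 70.8 in MRL/+. Of these Vip rose in MRL/lpr against both groups, by 1.26 ± 0.21 and 1.09 ± 0.21 (0.00292 and 0.0109), and Pvalb by 1.03 ± 0.27 against MRL/+ (0.0264). Gad1, Gad2, Slc32a1 and Sst had no call in limma. In MRL/lpr 4 of the 6 were above MRL/+ but only 2 above Fn14ko (median log2 difference -0.15).

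Some vessel and blood transcripts were highest in MRL/lpr as well. The 4 blood genes summed to 118 to 301 in MRL/lpr, 39.7 to 121 in Fn14ko and 34.1 to 61.7 in MRL/+, with Hba-a1 and Hbb-b2 up by 2.37 ± 0.43 and 2.28 ± 0.42 in MRL/lpr against MRL/+ (adjusted p = 0.00456 each) and Hbb-b2 by 1.87 ± 0.42 against Fn14ko (0.0216). The other blood genes, Hbb-b1 and Alas2, were at 0.42 ± 0.40 and 1.4 ± 0.48 against MRL/+ (0.449 and 0.0651). The 4 blood genes correlated with the mean of the members at 0.35 to 0.76 over the 12 mice (a description). With group means and dye removed this was -0.30 to 0.13. The markers of the other cell types then ran from -0.69 (Cd3e) to 0.80 (Slc1a3). The 6 endothelial markers, whose sum is weighted to bright probes, summed to 23.1 to 24.5, 16.2 to 23.6 and 10.8 to 15.1 in the same order. Of these Ly6c1, Flt1 and Slco1a4 rose by 1.47 ± 0.30, 1.07 ± 0.22 and 1.05 ± 0.18 against MRL/+ (0.00827, 0.00761 and 0.00348), and Ly6c1 and Slco1a4 also between Fn14ko and MRL/+, by 1.49 ± 0.30 and 0.85 ± 0.18 (0.0393 and 0.0483). Cldn5 was at 0.80 ± 0.29 against MRL/+ (0.0824), whereas Cdh5 and Pecam1 had negative values, -0.89 ± 0.36 and -0.24 ± 0.28 (0.104 and 0.407), and in Fn14ko against MRL/+ Cdh5 was at -1.16 ± 0.36 (0.118). Aif1 of the microglia rose by 1.17 ± 0.31 against MRL/+ (0.0271), and Mbp of the oligodendrocytes fell by 1.63 ± 0.35 (0.0110), as Mobp did against Fn14ko by 1.18 ± 0.29 (0.0361). The 8 striatal markers, of which none passed in limma and 2, 0 and 3 had an unadjusted p under 0.05 (MRL/lpr against MRL/+, MRL/lpr against Fn14ko, Fn14ko against MRL/+), summed to 20.8 to 43.5 in MRL/lpr, 15.8 to 169 in Fn14ko and 10.7 to 20.7 in MRL/+, and the choroid plexus marker Clic6 fell by 2.51 ± 0.78 and 2.96 ± 0.78 in MRL/lpr against MRL/+ and Fn14ko (0.0486 and 0.0494). No quantified marker was at 0. None of the astrocyte (5), meningeal (5) and lymphocyte (2 of 6 quantified) markers passed in limma in any comparison, with 0 to 2 of a list at an unadjusted p under 0.05. The background for all marker lists was 14.4% (MRL/lpr minus MRL/+), 4.57% (MRL/lpr minus Fn14ko) and 0.954% (Fn14ko minus MRL/+) past the limma threshold. At an unadjusted p under 0.05 it was 34.7%, 18.6% and 21.9% of all genes in that order. Whether a list differed from this background was not tested. The part of the marker shifts in the levels of the immediate early genes was not tested.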

How the data were processed

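Total RNA from the cortex of 12 mice was hybridized on 6 two-colour arrays, and per the file headers Feature Extraction 12.1.0.3 read the intensity of 44397 spots with an mm9 annotation. The deposited values used were the mean foreground and median local background intensity of each channel, on a linear scale before any normalization by the authors. Controls, spots marked as uneven or outlying, and spots under 2 times the local background in any mouse were left out, which kept 24255 spots. Intensities were background-corrected (normexp, offset 50), divided by the median of the channel, averaged per gene name and put on a log2 scale. The foreground limit follows the study's methods, and the median scaling stands in for their iterative normalization. Groups came from the labels and were compared in limma 3.58.1 (R 4.3.3) with a dye term, array as a random block (correlation 0.316) and Benjamini-Hochberg adjustment over 17302 genes at 0.05; single genes were also tested by exact permutation. The fit was tested on simulated data. The number of arrays limits the precision. No source says the mice of an array were otherwise linked. Genes were named as all members, the listed relatives, up to 4 called genes of a list and comparison, and called cell markers; uncalled cell markers and glucocorticoid-responsive genes were named after their values were seen. The members and lists were chosen with earlier results of these data known. Alternatives changed background, scaling, filters, blocks, dyes, mice and arrays; leaving out arrays and marked backgrounds was added after seeing the data, as was the count in Cy3 mice alone.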

Additional observations from a re-analysis of the deposited data

How the results depend on the processing

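The median difference of the 10 genes between MRL/lpr and MRL/+ ran from 0.84 to 2.21 over 35 settings and that between MRL/lpr and Fn14ko from 0.60 to 1.53. Leaving out 1 mouse gave 1.36 to 1.72, 0.82 to 1.22 and, for Fn14ko against MRL/+, 0.21 to 0.54. Keeping dim spots gave 2.21 and 1.18 against MRL/+ for MRL/lpr and Fn14ko. Without MRL/+ replicates 1 and 2 these were 0.84 and -0.26, and without 3 and 4 they were 2.19 and 0.97. Without Fn14ko replicates 1 and 2 or 3 and 4, MRL/lpr minus Fn14ko was 0.60 or 1.53.

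Members past the threshold between Fn14ko and MRL/+ numbered 0 with dim or marked spots kept, in the adjusted t-test and in the Cy3 mice. They also numbered 0 without either array of Fn14ko or of MRL/+, 2 in the Cy5 mice, and 0 to 1 without single mice. Egr4 kept its sign in 35 of 35 settings, its adjusted p being 0.559 (2.26) with dim spots, 0.0513 with marked spots and 0.245 in the t-test. In that comparison Npas4 was negative with loess (-0.054), 75th percentile scaling (-0.20), bright spots only (-0.18), Cy5 mice (-0.28), without Fn14ko replicates 3 and 4 (-0.43) or MRL/+ replicates 1 and 2 (-0.48), and ran from -0.17 to 0.31 without single mice, below 0 without Fn14ko replicate 3 or MRL/+ replicate 1, 2 or 3. Fosb was at -0.058, -0.036, -0.16 and -0.21 with 75th percentile scaling, bright spots only, without Fn14ko replicates 1 and 2 and without MRL/+ replicates 1 and 2. Arc was at -0.10 with the processed signal and, like Nr4a1 (-0.32), negative (-0.35) without the latter mice. Junb was at 0.019 with dim spots. The 75th percentile moved the median of all genes from -0.10 to -0.34 and -0.35 against MRL/+.

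Of the other activity-regulated genes, 12 passed between MRL/lpr and MRL/+, but 0 with dim spots, 7 with bright spots only or the t-test, 21 without the array block, 6 without MRL/lpr replicates 3 and 4, and 5 to 15 without single mice. Against Fn14ko, 3 passed, but 9 with background subtraction, 8 with a capped background or loess, 7 without the array block, 5 with the processed signal, bright spots or Cy5 mice, 1 in the groups compared alone, in Cy3 mice or without MRL/+ replicates 3 and 4, 0 with dim spots, the t-test or without Fn14ko replicates 1 and 2, and 0 to 4 without single mice. Between Fn14ko and MRL/+, 0 passed, but 17 in Cy5 mice, 9 with subtraction or capping, 8 without the array block, 4 with loess, 3 in the groups compared, 2 with the 75th percentile or no dye term, 1 with the processed signal or bright spots, and 0 to 7 without single mice. With the replicate block, 5 and 6 passed in the last pair of comparisons and Egr4 had an adjusted p of 0.0146; calls over all genes rose from 165 to 1209 between Fn14ko and MRL/+. Same-numbered mice correlated over 0.1 in 3 of 4 pairs of these groups (-0.28 in the other pair, highest 0.48) and in 0 of 8 pairs with MRL/lpr, so the numbers were not taken to pair the mice. Over all genes, calls ranged from 22 to 5597, 32 to 2849 and 0 to 4787 (2492, 790 and 165 as reported). The share of calls that were higher was 41.9% against MRL/+ for MRL/lpr and 24.8% for Fn14ko, but 23.9% and 14.9% with the 75th percentile and 47.3% and 54.1% with loess. The causes were not tested. No spot was saturated, and no value of a group of 4 mice stood out from the others by Dixon's test (0 of 33 groups).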
